A study of Mus musculus with 48 samples.

Results

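The genes described here serve the unfolded protein response and the secretory pathway, the route by which proteins enter the endoplasmic reticulum (ER), fold, are checked and leave for the Golgi. They were taken from a list of 57 gene symbols defined by pathway, with no threshold on a measured value, and 52 of these were present among the 11313 genes of the deposited tables. Hspa5, Dnajb9, Derl3, Sec62 and Srp54a were not analysed here. The 52 genes fall by role into 3 stress sensors and transcription factors, 10 chaperones and folding factors, 6 enzymes of oxidative folding, 8 genes of ER-associated degradation (ERAD), 13 genes of protein targeting and translocation, 5 of N-glycosylation, 4 of the COPII vesicle coat and 3 KDEL receptors.

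When unfolded proteins build up in the ER, the membrane proteins IRE1 (gene Ern1), ATF6 and PERK (gene Eif2ak3) signal to the nucleus. IRE1 splices the mRNA of the transcription factor XBP1, ATF6 is cut to release a transcription factor, and PERK slows translation and raises ATF4. Their targets include ER chaperones, ERAD genes and the translocation machinery, and rhythms with a period of 12 h have been proposed for this pathway in mouse liver and in cultured cells.

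RNA came from NIH 3T3 cells, an immortalised line of mouse embryonic fibroblasts, stably carrying either a control hairpin (shCTRL) or a hairpin directed at Bmal1 (shBmal1), the clock activator that the tables list as Arntl. Cultures of both lines received 50% horse serum for 2 h and were harvested at 12 times, every 2 h between 24 and 46 h. Each culture gave a total RNA library and a library of new RNA that had incorporated 4-thiouridine (4sU), making 4 groups of 12 libraries: total and 4sU RNA of shCTRL, and total and 4sU RNA of shBmal1. Per the labels' protocols, 30 ug of RNA went to each pull-down, which used up approximately 50% of a shCTRL sample but 60 to 70% of a shBmal1 sample.

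Both lines shared the serum shock and the 4sU labelling, and there was 1 stable line of each kind. Every p-value therefore measures the spread of single libraries around fitted curves, which may be technical, and not the spread between independent lines. The total and 4sU libraries of a time point came from the same culture and are not independent of each other. In RNA from whole cultures, fewer cells expressing a gene and less RNA per cell cannot be told apart.

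Depth recovered from the deposited values was 53931845 to 76260143 reads in the total and 48873013 to 71451107 in the 4sU libraries of shCTRL, and 50977879 to 69829031 and 51841130 to 67576474 in those of shBmal1. In the exon table the reads behind a member in 1 library ran from 115 for Sec61g to 101483 for P4hb, with a median of 5908, and in the intron table from 20 for Sdf2l1 to 70890 for P4hb, with a median of 1668. For Manf, Srpr and Ssr1 the recovered intron length, 53016, 32445 and 25807 bases, exceeds the RefSeq span of the gene. What their intron values cover is therefore not known. The libraries farthest from their own group in total RNA were shCTRL at 30 h, where the SD over genes of the log2 deviation from the group mean was 0.254, and shBmal1 at 34 h, where it was 0.294. In shCTRL the 30-h library held the lowest value of 18 of the 52 members. In shBmal1 the 34-h library held the highest value of 15 members and the lowest of 13. These extremes were not particular to the members. Of 86 other ER and secretory genes (below), 24 were lowest at 30 h in shCTRL. In shBmal1 19 of them were highest and 36 lowest at 34 h. The line differences of Hsp90b1, Canx, Dnajc3 and Sec63, the rhythm of Hyou1 and the counts of 24-h members in total exon RNA are also given with 30, 34 and 46 h left out together. These times were chosen after the values were seen, so the values without them are descriptive and no independent support. Without these times the counts of line differences were 18 higher and 19 lower. With all libraries 34.4% of all genes were higher and 33.1% lower, and the shares without these times are not given here.

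The hairpin was checked on its target. Arntl (total exon) had a lowest, median and highest level of 1.33, 8.74 and 17.4 RPKM in shCTRL and of 2.25, 3.95 and 4.71 in shBmal1. Its mean log2 level was lower in shBmal1 by a difference of -0.92 ± 0.08 (SE), and its 24-h amplitude was 1.59 in shCTRL and 0.30 in shBmal1, with an adjusted p of 3.3e-06 in limma for the difference in rhythm. The total exon value was lower in shBmal1 at 9 times and higher at 3. In 4sU exon RNA the difference was -0.72 ± 0.08. In introns Arntl was higher in shBmal1, by 0.51 ± 0.06 in total and 0.57 ± 0.08 in 4sU RNA. Of the fibroblast marker genes, 8 of 9 were in the tables, and their summed level ran from 5210 to 6014 RPKM in shCTRL total libraries and from 4107 to 5068 in shBmal1 total libraries. Of the leukocyte markers 3 of 5 were in the tables, with sums of 5.70 to 8.70 and 9.07 to 11.9 RPKM. Of 5 epithelial markers Krt14 alone was in the tables, at 2.18 to 4.44 RPKM in shCTRL and 7.20 to 13.3 in shBmal1, without overlap, and the part of these shifts in the results below was not tested.

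The ER stress elements in the promoters of these genes are shown because they are what the sensors' transcription factors bind. Promoter windows of 250 bases before to 50 bases after a RefSeq start (GRCm38.p6) were at hand for 48 of the 57 listed genes, 43 of them in the tables. Genes are counted below by whether any of their windows holds the element. The ER stress response element, CCAAT followed by 9 bases and CCACG, was sought on both strands. It was found in 10 of the 48 genes, against 0.137% of all 27025 genes with a window. Of those, 8 belonged to genes in the tables: Calr, Canx, Creld2, Dnajc3, Ero1lb, Hsp90b1, Pdia6 and Syvn1. ERSE-II, ATTGG followed by 1 base and CCACG, was found in 2 genes, against 0.0444% of all, and the UPRE core TGACGTGG in 3, against 0.714% of all. The core CCACG, which ERSE, ERSE-II and, on the opposite strand, the UPRE core all contain, was found in 36 of 48 genes, against 35.5% of all. The E-box CACGTG, which the Bmal1 protein binds with CLOCK, was found in 5 genes, against 8.09% of all. Below, RefSeq stretches of genes with a line difference or a rhythm described later are printed 5′ to 3′ on the gene's own strand, with the matched letters of ERSE, ERSE-II or UPRE in capitals. An element on the opposite strand reads as its reverse complement.
Calr, ERSE: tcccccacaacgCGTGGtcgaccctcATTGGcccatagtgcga
Creld2, ERSE: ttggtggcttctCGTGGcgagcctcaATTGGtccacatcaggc
Hsp90b1, distal ERSE: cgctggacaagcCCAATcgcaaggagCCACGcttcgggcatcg
Hsp90b1, proximal ERSE: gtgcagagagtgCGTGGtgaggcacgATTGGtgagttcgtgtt
Canx, ERSE: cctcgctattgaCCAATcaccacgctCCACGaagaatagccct
Dnajc3, ERSE: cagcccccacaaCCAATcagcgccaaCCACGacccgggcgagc
Herpud1, ERSE-II: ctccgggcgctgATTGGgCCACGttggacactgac
Sec24d, UPRE core: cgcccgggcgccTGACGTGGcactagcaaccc
Kdelr3, UPRE core: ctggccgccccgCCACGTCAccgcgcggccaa

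These stretches lie at chr8:84847063-84847105 (Calr, minus strand), chr15:88819508-88819550 (Creld2, plus strand), chr10:86705626-86705668 and chr10:86705521-86705563 (Hsp90b1, minus strand), chr11:50325788-50325830 (Canx, minus strand), chr14:118937815-118937857 (Dnajc3, plus strand), chr8:94386365-94386399 (Herpud1, plus strand), chr3:123267458-123267489 (Sec24d, plus strand) and chr15:79516366-79516397 (Kdelr3, plus strand). In Calr the element begins 162 and ends 144 bases before the start. Hsp90b1 has an element from 212 to 194 and another from 107 to 89 bases before the start. The Herpud1 element runs from 52 to 42 bases before the start. The start used for Sec24d lies inside the gene's RefSeq span, which begins at 123264801 on chromosome 3, so its stretch precedes an internal transcript start. A match describes these letters only and says nothing of whether a factor was bound in these cells.

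Levels are RPKM scaled across libraries, and a line difference is the mean log2 level over the 12 time points of shBmal1 minus that of shCTRL, ± SE of a limma fit across all genes. A gene was called at a Benjamini-Hochberg adjusted p under 0.05. In total exon RNA, 16 of the 52 members were higher and 18 lower in shBmal1, beside 34.4% of all tested genes called higher and 33.1% called lower, so the counts lie near the background. The median line difference was 0.022 over members and 0.0060 over all genes. With a size of at least 0.5 on the log2 scale also required, 0 members were higher and 4 lower, beside 13.4% of all genes in either direction. Groups that did not overlap at all were found for 6 members, Calr, Dnajb11 and Creld2 above and Edem1, Sel1l and Ssr2 below, beside 13.0% of all genes. Differences were largest downward: 9 of the 10 members with the largest called difference were lower in shBmal1. All genes leaned the same way, with 904 lower and 562 higher at a size of at least 0.5.

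**Figure D1:**
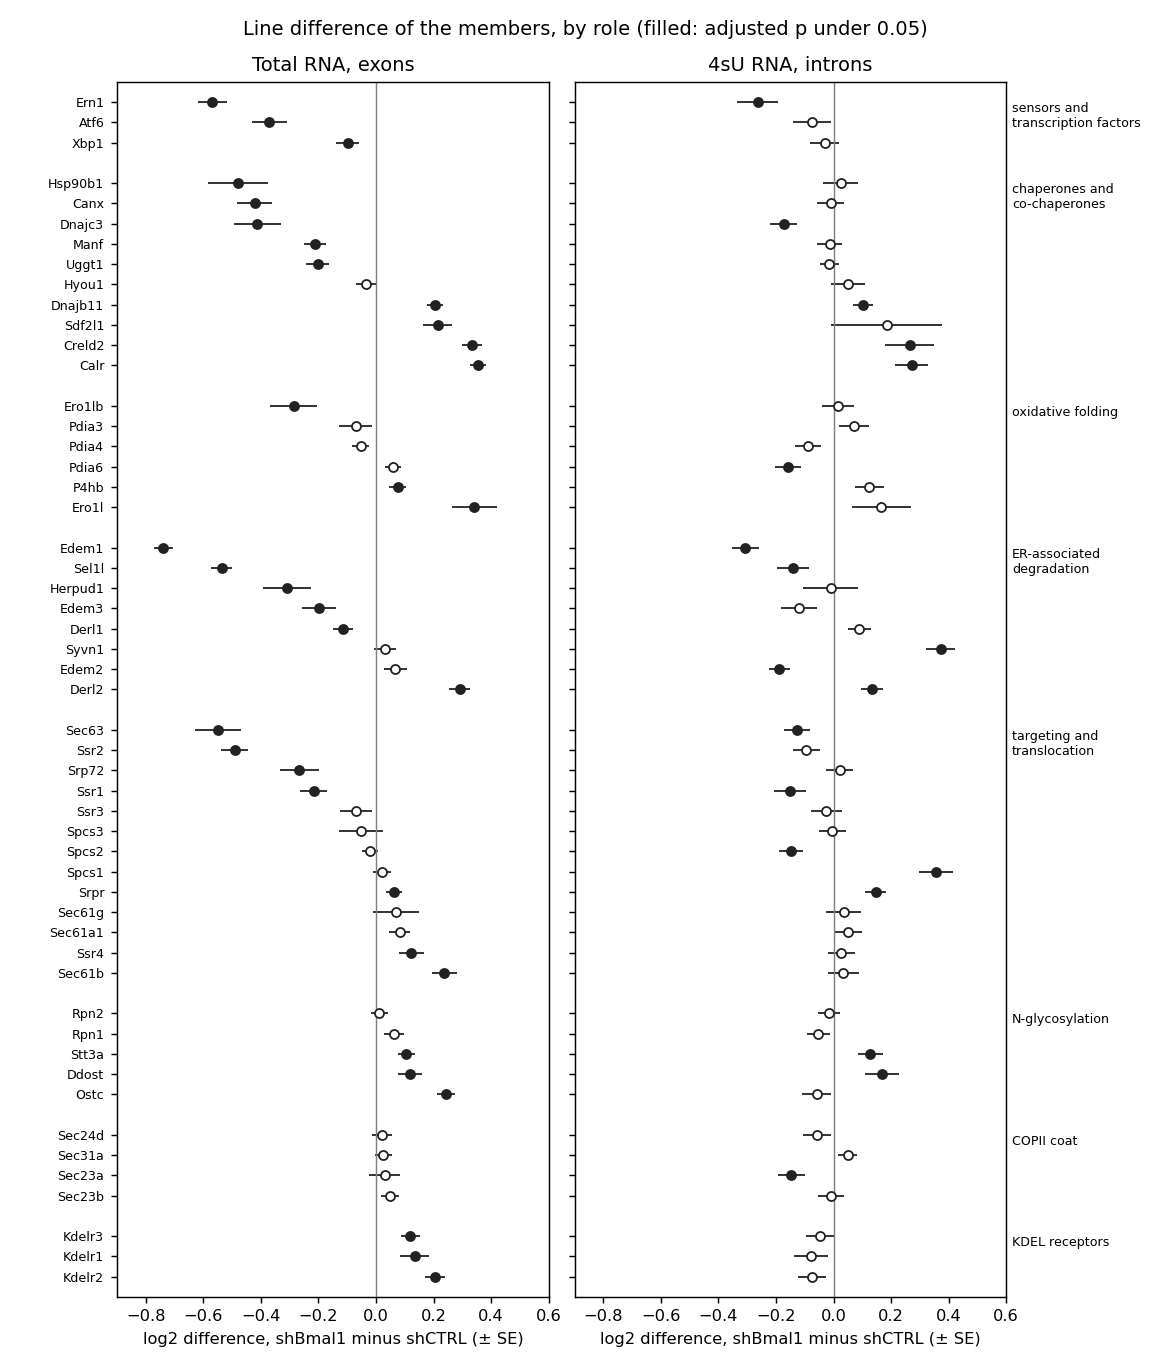
Line difference (log2 shBmal1 minus shCTRL) of each member by role, in total exon and in 4sU intron RNA; points are the limma estimate, bars its SE, and filled points have an adjusted p under 0.05. Edem1 lies lowest in total exon RNA at -0.74 and Calr highest at 0.35.

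All 3 genes of the sensor group were lower in shBmal1 in total exon RNA. Ern1, the IRE1 kinase and endoribonuclease, had a lowest, median and highest level of 6.94, 7.67 and 8.14 RPKM in shCTRL and of 4.22, 5.05 and 7.09 in shBmal1. The shBmal1 values lay below the shCTRL values at all 12 time points, and only the 46-h shBmal1 library reached into the shCTRL range. The line difference was -0.57 ± 0.05 (adjusted p = 3.9e-09 in limma). Atf6 stood at 6.46, 7.75 and 8.38 RPKM in shCTRL and at 4.25, 6.07 and 7.57 in shBmal1, with a difference of -0.37 ± 0.06 (adjusted p = 1.7e-05 in limma). The Atf6 groups overlapped, though the value was lower in shBmal1 at each of the 12 times. Xbp1 differed least: its levels were 84.9, 100.5 and 106 RPKM in shCTRL and 76.4, 91.5 and 106 in shBmal1, groups that share their upper end. Its difference of -0.10 ± 0.04 had an adjusted p of 0.034 in limma, and it missed the threshold in 8 of the 12 fits that left out 1 time point (24, 30, 34, 36, 38, 40, 42 or 44 h), where the difference lay between -0.10 and -0.07. RPKM of Xbp1 count the spliced and unspliced forms together.

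Among the 10 chaperones and folding factors, 4 were higher and 5 lower in total exon RNA. Calr, the lectin chaperone calreticulin of the ER lumen, had levels of 274, 306 and 343 RPKM in shCTRL and of 345, 394 and 447 in shBmal1. Every shBmal1 library lay above every shCTRL library. The difference was 0.35 ± 0.03 (adjusted p = 2.9e-10 in limma), a 1.28-fold higher level. Canx, its membrane-bound relative calnexin, went the other way, with 111, 138 and 152 RPKM in shCTRL and 79.8, 100.4 and 138 in shBmal1. The Canx groups overlapped, with the 34-h library highest in shBmal1, and the difference was -0.42 ± 0.06, or -0.53 without 30, 34 and 46 h.

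Creld2, an ER stress-induced protein with disulfide isomerase activity, stood at 15.9, 17.3 and 18.4 RPKM in shCTRL and at 18.8, 21.7 and 24.1 in shBmal1. These groups did not overlap, with a difference of 0.33 ± 0.04. Dnajb11, a J-domain partner of the chaperone BiP, was also higher without overlap (0.21 ± 0.03), and Sdf2l1, which binds it, was higher with overlap (0.21 ± 0.05). Dnajc3, the p58IPK co-chaperone, was lower by a difference of -0.41 ± 0.08 (-0.53 without 30, 34 and 46 h), and Manf, a secreted ER stress factor, by -0.21 ± 0.04.

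Hsp90b1, the ER form of HSP90 known as GRP94, had levels of 53.9, 90.5 and 108 RPKM in shCTRL and of 44.4, 62.9 and 102 in shBmal1. The groups overlapped widely, with the 30-h library lowest in shCTRL and the 34-h library highest in shBmal1. Its difference was -0.48 ± 0.10 with all libraries and -0.64 when 30, 34 and 46 h were left out together. Leaving out these extreme libraries in itself favours a wider difference. The 8 genes with an ERSE did not move one way: Calr and Creld2 were higher, Hsp90b1, Canx and Dnajc3 lower, Ero1lb was called lower on unequal transcript lengths (below), and Pdia6 and Syvn1 were not called.

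In oxidative folding 2 of 6 genes were higher and 1 lower. Ero1l, the oxidase that recharges protein disulfide isomerase, had levels of 4.23, 5.83 and 6.57 RPKM in shCTRL and of 5.53, 7.31 and 10.2 in shBmal1. The groups overlapped, and shBmal1 was higher at all 12 times, with a difference of 0.34 ± 0.08. Its paralogue Ero1lb gave -0.29 ± 0.08, but the deposited RPKM rest on a transcript length of 3310 bases in shCTRL and 4208 in shBmal1, which lowers shBmal1 values by 0.35 on the log2 scale. Its direction is therefore not reported as a change in RNA.

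ERAD held the largest line difference of the 52 members in total exon RNA, with 1 of 8 genes higher and 5 lower. Edem1, a mannosidase-like protein that marks misfolded glycoproteins for degradation, had levels of 17.9, 20.9 and 24.4 RPKM in shCTRL and of 11.4, 12.8 and 13.5 in shBmal1. No shBmal1 library reached the lowest shCTRL value. The difference was -0.74 ± 0.03 (adjusted p = 9.3e-14 in limma), or 0.60 times the shCTRL level. Sel1l, the adaptor of the HRD1 ubiquitin ligase, stood at 17.5, 18.5 and 21.1 RPKM in shCTRL and at 10.8, 12.8 and 15.3 in shBmal1. Its groups were again separate, with a difference of -0.54 ± 0.04. Syvn1, which encodes HRD1 itself, was not called in total exon RNA (0.03 ± 0.04, adjusted p = 0.46 in limma).

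Herpud1, a membrane component of the HRD1 complex, had levels of 26.01, 29.3 and 34.3 RPKM in shCTRL and of 18.0, 22.8 and 48.4 in shBmal1. The highest value was the 46-h shBmal1 library, where the next highest was 24.4 RPKM, and the other 11 shBmal1 libraries lay below the lowest shCTRL value. The difference was -0.31 ± 0.08 with all libraries and -0.39 ± 0.05 without 46 h. Derl2, a derlin of the retrotranslocation channel, was the ERAD gene that was higher (0.29 ± 0.04).

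**Figure D2:**
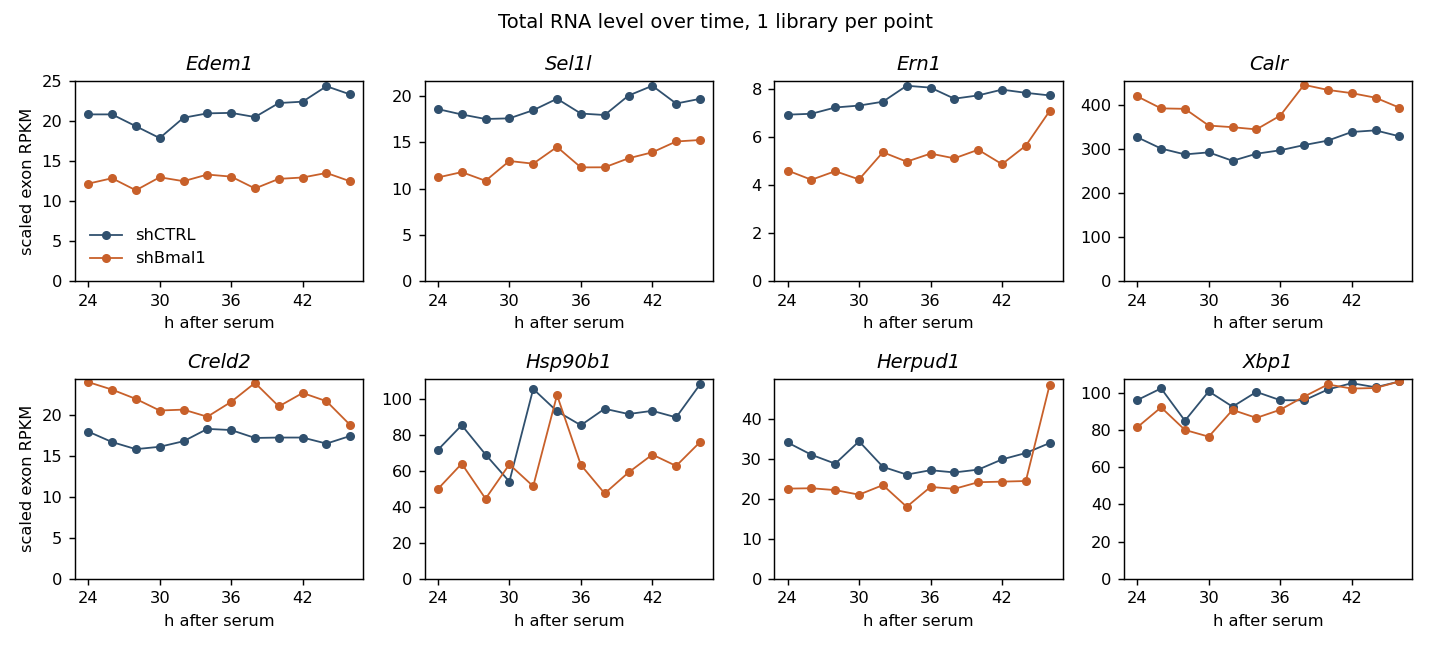
Total exon level (scaled RPKM) of 8 members at each time after serum (h), with 1 point per library and 1 line per cell line. Edem1 and Sel1l in shBmal1 stay below shCTRL at all times, Calr and Creld2 above, and Herpud1 has a single high library at 46 h in shBmal1.

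In targeting and translocation 3 of 13 genes were higher and 4 lower. Sec63, which couples the SEC61 channel to luminal chaperones, had levels of 7.29, 11.4 and 13.7 RPKM in shCTRL and of 5.60, 7.40 and 11.3 in shBmal1. These overlapped, with the 30-h library lowest in shCTRL and the 34-h library highest in shBmal1. The difference was -0.55 ± 0.08, or -0.69 without 30, 34 and 46 h, where leaving out these extremes favours a wider difference. Ssr2, a subunit of the translocon-associated protein complex, stood at 104, 120.1 and 140 RPKM in shCTRL and at 69.1, 87.2 and 97.2 in shBmal1, without overlap. Its difference was -0.49 ± 0.05, while another subunit, Ssr4, was among the members called higher.

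Of 5 N-glycosylation genes, 3 were higher and 0 lower, among them the oligosaccharyltransferase subunits Ostc (0.24 ± 0.03) and Ddost (0.12 ± 0.04). All 3 KDEL receptors, which return escaped ER proteins from the Golgi, were higher in total exon RNA, Kdelr2 by 0.21 ± 0.04, beside the 34.4% of all genes called higher. None of the 3 passed the test in 4sU intron RNA, where Kdelr2 stood at -0.08 ± 0.05. The 4 COPII coat genes were not called in total exon RNA, with Sec24d at 0.02 ± 0.03.

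Fewer members were called in new RNA and in introns. In 4sU exon RNA 13 members were higher and 13 lower, beside 27.5% and 26.9% of all genes, and with the size threshold 0 were higher and 2 lower, Edem1 and Ero1lb, beside 9.15% of all genes; for Ero1lb this again rests on unequal transcript lengths. In total intron RNA 14 of 51 were higher and 13 lower, beside 29.3% and 26.8%, and in 4sU intron RNA 9 of 52 were higher and 10 lower, beside 22.0% and 22.4%. The count lower in 4sU intron RNA was 6 without 28 h. Called lower in all 4 of these layers were 6 members, Dnajc3, Edem1, Ern1, Sec63, Sel1l and Ssr1. What the intron values of Ssr1 cover is not known (above). Called higher in all 4 were Calr, Creld2, Ddost and Derl2. Of all genes tested in the 4 layers, 13.3% were lower and 13.1% higher in each.

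In 4sU intron RNA, which comes from unspliced new transcripts, Edem1 had levels of 0.820, 1.04 and 1.11 RPKM in shCTRL and of 0.720, 0.829 and 0.945 in shBmal1. The groups overlapped, with shBmal1 lower at all 12 times and a difference of -0.31 ± 0.05. Ern1 gave -0.26 ± 0.07, Dnajc3 -0.17 ± 0.05, Calr 0.27 ± 0.06 and Creld2 0.26 ± 0.08. Creld2 missed the threshold without 32 h (0.21) or 42 h (0.24), and Ddost (0.17 ± 0.06) without 28, 32, 36, 38, 40 or 44 h (0.12 to 0.17). The highest differences in this layer belonged to Syvn1 (0.37 ± 0.05) and to the signal peptidase subunit Spcs1 (0.36 ± 0.06), neither of which was called in total exon RNA. Atf6, Hsp90b1, Canx, Herpud1, Manf and Xbp1, all lower in total exon RNA, had 4sU intron differences of -0.08, 0.03, -0.01, -0.01, -0.01 and -0.03, none of them called.

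The 4sU/total ratio, the log2 exon level of the 4sU library minus that of the total library of the same culture, compares new RNA with the RNA present. It was higher in shBmal1 for 14 members and lower for 9, beside 15.9% and 12.1% of all genes, and the count lower was 5 without 34, 42 or 44 h and 5 with a block by time point. Among the higher were Ssr2 (0.34), Sel1l (0.30), Herpud1 (0.28), Ern1 (0.23), Atf6 (0.21), Hsp90b1 (0.20) and Manf (0.18), each of which was lower in total exon RNA. Since the total exon value enters the ratio with a negative sign, the 2 measures are not independent. Edem2, another EDEM mannosidase, had a lower ratio (-0.25). Ero1lb, whose length is the same in the total and 4sU libraries of a line, also had a lower ratio (-0.25). Syvn1 passed the test, but its deposited RPKM rest on a transcript length of 4061 bases in shCTRL 4sU and 3433 elsewhere, so its ratio is not compared.

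The direction of the line difference went with transcript length. The median exon length was 4685 bases for the 18 members lower in shBmal1, 2004 bases for the 16 higher and 2924 bases for the 18 not called. Across the 50 members with 1 length, Spearman's rho between length and line difference was -0.51 in total exon RNA, beside -0.34 across 9803 genes of the whole table. In 4sU intron RNA rho was -0.29 for members and -0.22 for all genes. These are correlations across genes, which share libraries and are not independent replicates.

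**Figure D3:**
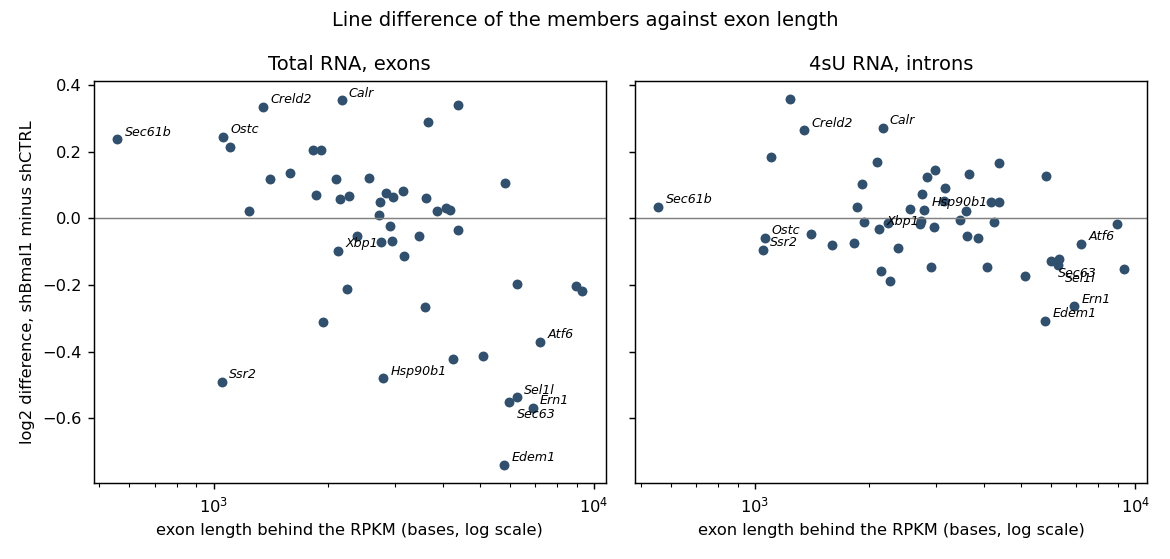
Line difference (log2 shBmal1 minus shCTRL) of 50 members against their exon length (bases, log axis), in total exon and 4sU intron RNA, 1 point per gene. Longer transcripts lie lower in total exon RNA, with a Spearman rho of -0.51.

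Single libraries also differed from their group mean in step with length. In shBmal1 total RNA, rho between exon length and a member's deviation was -0.61 at 24 h, -0.55 at 28 h, -0.52 at 38 h, 0.57 at 34 h and 0.47 at 46 h. Over all genes the same libraries gave -0.36, -0.37, -0.28, 0.38 and 0.23. In shCTRL the 30-h library gave -0.56 for members and -0.34 for all genes. Length therefore went both with the line difference and with the deviation of single libraries from the mean of their line. The part of length in the line differences was not tested.

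**Figure D4:**
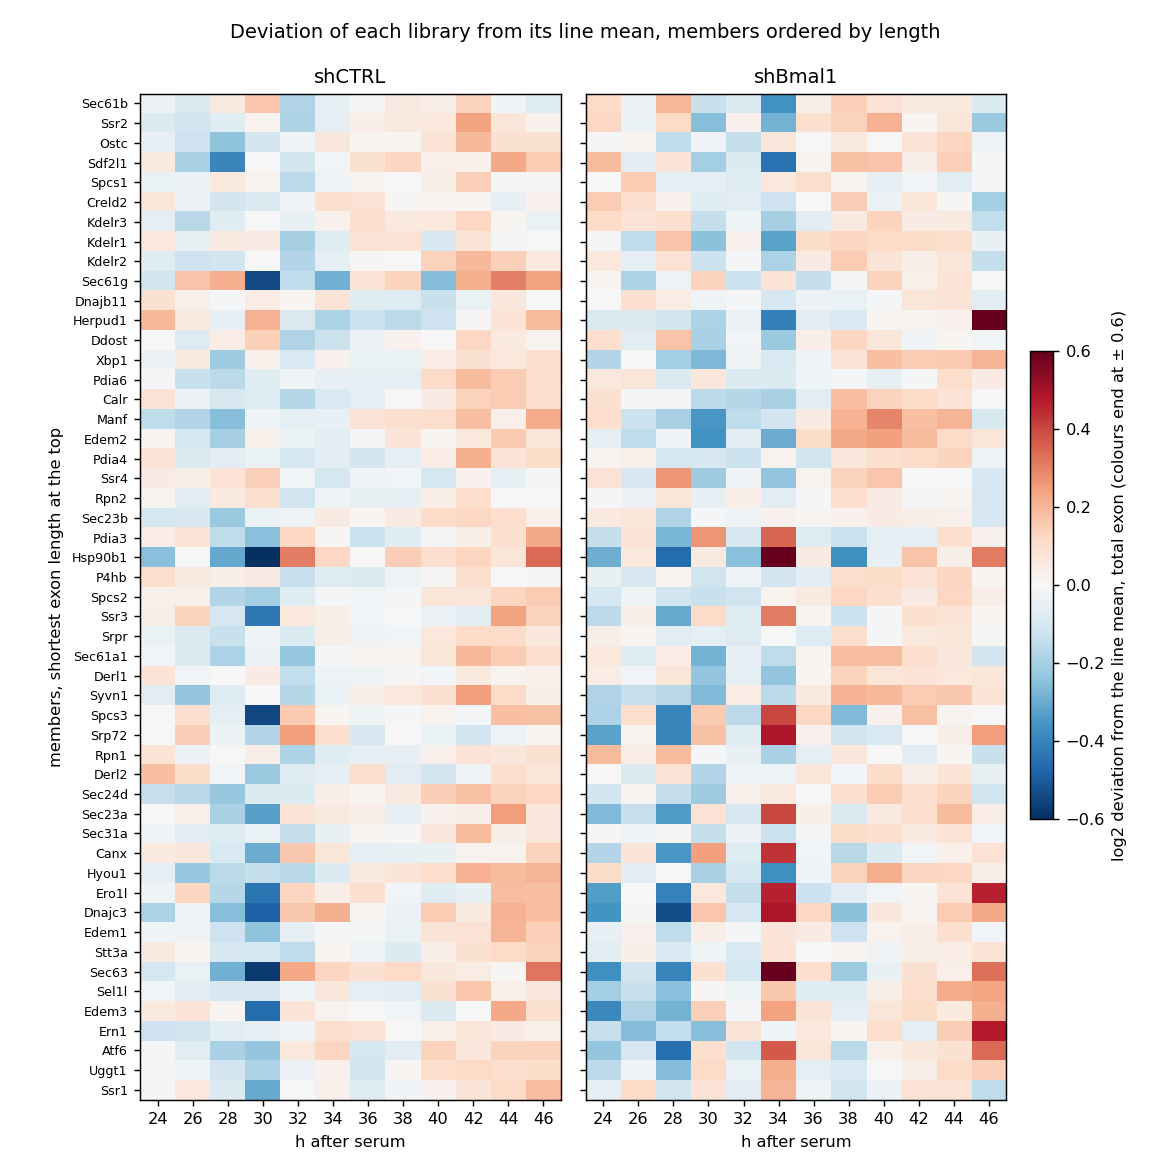
Log2 deviation from the group mean of 51 members (rows, ordered by exon length) in each total RNA library (columns, h after serum, by line). The 34-h shBmal1 library has high values among many long transcripts and low values among many short ones, and the 24-h and 28-h shBmal1 libraries have the opposite.

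Rhythms were tested as waves of 24-h and 12-h period fitted together in each line. Amplitude is the log2 distance from mean to peak. In total exon RNA 6 members had a 24-h rhythm in shCTRL and 7 in shBmal1, beside 3.60% and 11.1% of all genes. Hyou1, an HSP70-related exchange factor of the ER, had levels of 29.3, 34.4 and 39.7 RPKM in shCTRL and of 25.95, 34.0 and 39.1 in shBmal1. Its lowest value fell at 26 h in shCTRL and at 34 h in shBmal1, and its highest at 42 and 40 h, so that the ranges of the lines overlapped. Its amplitude was 0.20 ± 0.04 with a peak at 41.7 h in shCTRL and 0.18 ± 0.04 with a peak at 43.2 h in shBmal1. Without 30, 34 and 46 h the shBmal1 amplitude was 0.13 and no longer called (adjusted p = 0.069 in limma), while that of shCTRL was 0.20.

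Calr and the signal peptidase subunit Spcs2 were likewise called in both lines. Calr had an amplitude of 0.14 in each, with peaks at 43.7 and 43.0 h. In shCTRL the others were the COPII cargo adaptor Sec24d (0.16), Ostc (0.13) and the disulfide isomerase Pdia6 (0.13). In shBmal1 they were Manf (0.24), Edem2 (0.22), Syvn1 (0.20) and Xbp1 (0.18). For Xbp1 the amplitude in shCTRL was 0.07 with an adjusted p of 0.63 in limma, and the difference in rhythm between the lines had an adjusted p of 0.595. The count of 7 in shBmal1 rose to 12 without 32 h, a fit for which the share of all genes is not given here.

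In total exon RNA the fitted 24-h peak lay between 36 and 48 h for 47 of 52 members in shCTRL and for 46 of 52 in shBmal1, called or not, beside 52.5% and 51.6% of all genes. In 4sU exon RNA the counts were 49 in shCTRL and 28 in shBmal1, beside 52.0% and 47.8% of all genes, and in 4sU intron RNA 48 and 35, beside 49.4% and 51.2%. The series covers a single cycle, and with a linear time term added 0 of the 52 were called in either line. A wave of 24 h and a drift over the series could thus not be told apart by the calls. In shCTRL the count of 6 fell to 1 without 42 h, to 2 without 28, 38, 40 or 44 h and to 3 without 36 h. It was 10 without 30, 34 and 46 h together, and that of shBmal1 was then 4. Shares of all genes in these fits are not given here.

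**Figure D5:**
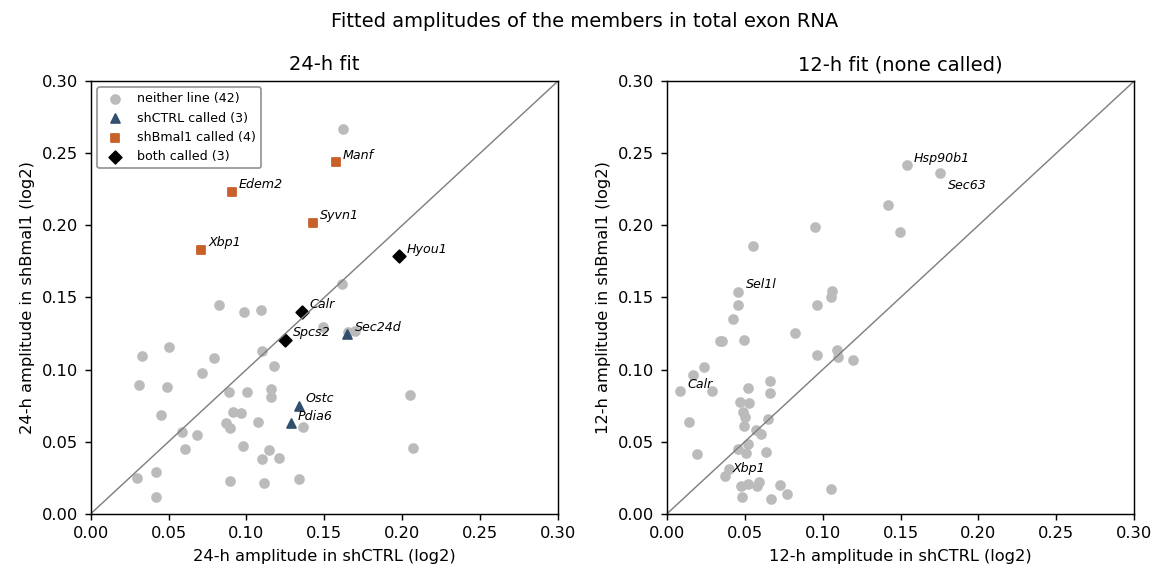
Fitted 24-h and 12-h amplitudes (log2, mean to peak) of the members in total exon RNA, shCTRL against shBmal1, 1 point per gene. Hyou1 lies at 0.20 and 0.18 for the 24-h wave, and no member was called for the 12-h wave.

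In the other layers the 24-h counts were as follows. In 4sU exon RNA 0 members were called in shCTRL, where 16 had an unadjusted p under 0.05 in limma beside 11.9% of all genes. In shBmal1 11 were called, with Edem2 (0.44), Sdf2l1 (0.33) and Herpud1 (0.32) largest. All genes gave 1.98% and 17.9%. In total intron RNA 2 members, Spcs2 and Sec24d, were called in shCTRL and 0 in shBmal1, where 9 had an unadjusted p under 0.05 beside 20.5% of all genes, and the called shares of all genes were 1.34% and 5.17%. In 4sU intron RNA Edem2 (0.18) was called in shCTRL and Hyou1 (0.29) and Xbp1 (0.23) in shBmal1, beside 1.12% and 5.82% of all genes. The ratio had 0 in shCTRL, with 3 at an unadjusted p under 0.05 beside 6.92% of all genes, and 15 in shBmal1, with Ero1l (0.25) and Manf (0.22) largest, beside 0.0184% and 18.0%.

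Many of these counts rested on single time points. The shares of all genes in these fits are not given here, so the shifts are not read as particular to the members. In shBmal1 4sU exon RNA the 11 became 18 without 32 h, 5 without 40 h, 6 without 30 h and 7 without 34 or 42 h, and Herpud1 had its highest value there at 46 h (69.96 RPKM, next highest 36.4). The 15 of the shBmal1 ratio became 2 without 40 h, 4 without 30 or 34 h, 5 without 28 h, 6 without 42 h, 8 without 38 h and 9 without 46 h. In shCTRL total intron RNA the 2 became 0 without 28, 30, 36, 38, 40, 42 or 44 h and 1 without 24, 26 or 34 h. In 4sU intron RNA the shCTRL call of Edem2 was lost whenever a time point other than 24 h was left out. The 2 calls of shBmal1 there became 8 without 32 h, 4 without 24 h, 0 without 28 or 40 h and 1 without 30, 34, 36, 38, 42, 44 or 46 h.

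A difference in 24-h rhythm between the lines was called for 0 members in any layer, beside 0.806% of all genes in total exon, 1.06% in 4sU exon, 0.0998% in total intron, 0.285% in 4sU intron and 0.0920% in the ratio. At an unadjusted p under 0.05 in limma there were 1, 11, 2, 8 and 16 members, beside 11.3%, 19.5%, 8.51%, 14.9% and 22.7% of all genes. The unequal counts of the lines above are thus not shown to differ. The same test of 12-h rhythms called 0 members in total exon and 0 in 4sU intron RNA, beside 0% of all genes in both. Unadjusted, it gave 2 and 3 members, beside 4.64% and 3.98%.

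No member had a called 12-h rhythm in any layer or line. In shCTRL the called share of all genes was 0% in total exon, 4sU exon, total intron, 4sU intron and the ratio. In shBmal1 it was 0.0183%, 0%, 0.449%, 0% and 0%. At an unadjusted p under 0.05 in limma, shCTRL had 2 members in total exon, 1 in 4sU exon, 3 in total intron, 0 in 4sU intron and 1 in the ratio, beside 3.23%, 2.34%, 4.47%, 2.86% and 4.26% of all genes. In shBmal1 the counts were 12, 10, 9, 6 and 0, beside 24.2%, 18.1%, 25.1%, 19.5% and 4.72%.

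The 12 members of shBmal1 total exon RNA at an unadjusted p under 0.05 in limma, a count near the 24.2% of all genes, fell into 2 sets by peak. Peak times of all genes are not given here, so the 2 sets are not read as particular to the members. Atf6, Ern1, Uggt1, Sel1l, Sec63, Srp72 and Sec23a peaked between 32.4 and 33.5 h and had a median exon length of 6259 bases. Calr, Sec61b, Ssr4, Rpn1 and Kdelr3 peaked between 26.9 and 27.3 h, with a median of 2167 bases. The count turned on the 32-h library, which lay closest of the 12 to its group mean (SD over genes of 0.117). Its distance from the fitted curves was among the largest (SD over genes of 0.167, beside 0.171 at 34 h). Leaving it out thus takes away values that the fitted waves missed, and the fit without it is no independent support. Without the 32-h library 12 members were called, beside 18.1% of all genes. Of these, Canx, Dnajc3, Hsp90b1, Atf6, Sec23a, Sec63, Sel1l, Srp72 and Uggt1 peaked between 32.4 and 32.9 h, and Kdelr3, Sec61b and Ssr2 between 26.6 and 27.0 h. The count was 4 without 26 h and 1 without 24 h, fits for which the share of all genes is not given here. Without 32 h the count was 5 in 4sU exon, 4 in total intron and 3 in 4sU intron RNA, beside 7.67%, 12.9% and 6.62% of all genes. The peak times lie next to the 28-h and 34-h libraries, whose deviations went with transcript length (above), and the part of length in these waves was not tested.

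Other genes of the ER and secretory pathway, outside the 57, were read in the same fits, 86 of 89 being in the tables. In total exon RNA 37 were higher and 28 lower, and in 4sU intron RNA 16 of 84 were higher and 17 lower, beside the shares of all genes given above. The largest called differences in total exon RNA included those of the translocating-chain protein Tram1 (-1.12), the stress pseudokinase Trib3 (0.96), the glutathione-degrading Chac1 (0.85) and the apoptosis gene Bbc3 (0.58). The prolyl isomerase Fkbp2 (1.18) and the cargo receptor Tmed10 (0.60) were also called higher, but their total RNA values rest on unequal transcript lengths, 1515 bases in shCTRL and 631 in shBmal1 for Fkbp2 and 3176 and 1473 for Tmed10, which raise shBmal1 values by 1.26 and 1.11 on the log2 scale. In 4sU intron RNA, with 1 length each, Fkbp2 gave -0.12 ± 0.08, not called, and Tmed10 was lower (-0.37 ± 0.05). Of the called genes in this list, Txndc11 and Copa, both called lower, also had unequal recovered lengths, for Txndc11 3072 bases in shCTRL and 1536 in shBmal1. The recovery takes the smallest length that gives whole reads, so the shorter Txndc11 length may be a fraction of the true one. In 4sU intron RNA Trib3 (0.92), Chac1 (0.84), asparagine synthetase Asns (0.50) and Ppp1r15a (0.41), whose product reverses the PERK signal, were higher. Tram1 (-0.44) and the transcription factor Creb3l2 (-0.43) were lower. Creb3l1, a relative of Atf6, had the largest 24-h amplitude among them in shCTRL total exon RNA (0.63, peak at 36.5 h).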

How the data were processed

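NIH 3T3 RNA was measured in 48 libraries. The authors deposited RPKM per gene for exons and for introns. Per the submitters' processing notes, Trim Galore and HOMER 4.11.1 were used on mm10 (GRCm38.p6), with the aligner not given in the sources used here. Spike-ins were not analysed here. Whole reads and lengths were recovered from the steps between low RPKM values, with lengths taken as equal within 0.1%. Intron totals came out 1.35 to 1.39 times the exon totals in the 12 shBmal1 4sU libraries and equal to them in the other 36, so deposited intron RPKM were not on 1 scale.

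Within a layer, median-ratio factors brought the RPKM of the libraries to a common scale. Values were then log2(RPKM + 0.1) for exons and log2(RPKM + 0.02) for introns, a scale that shrinks folds at low levels. Those whose mean RPKM reached 0.5 (exon) or 0.1 (intron) were fitted in limma 3.58.1 (R 4.3.3, trend and robust variance), with a mean and 24-h and 12-h cosine and sine terms per line. All 52 members passed, except Atf6 in total intron RNA. P-values were adjusted by Benjamini-Hochberg over all genes tested. The fit was tested on simulated data of total exon RNA. Alternatives were another scaling, pseudocount, filter, variance model, time terms, a time-point block and leaving out each time point.

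The members, the other gene lists and the tests were chosen with earlier results of these data known. Named were 10 set genes of the response, up to the 10 members with the largest called difference or amplitude per test, and the largest among the other ER genes.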

Additional observations from a re-analysis of the deposited data

How the results depend on the processing

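Of 1238 alternative values, 599 counts and 516 single-gene values kept their direction and side of the threshold (counts within 1.5 times), 99 counts moved, 19 single-gene calls were lost and 5 reversed. The reversals were in 4sU intron RNA as deposited, where the scale differs between groups: Syvn1 -0.10, Spcs1 -0.12, Calr -0.20, Creld2 -0.20 and Ddost -0.30, with 0 members higher and 50 lower. For the other moved counts the cause was not tested. As deposited, members higher were 26 in total exon and 21 in 4sU exon, and 24-h members were 3 in shCTRL total exon, 1 in shCTRL and 2 in shBmal1 total intron and 0 in shCTRL 4sU intron, with 2 12-h members in shBmal1 total intron. With 75th percentile scaling the 24-h counts were 12 in shBmal1 total exon, 2 in shBmal1 total intron and 2 in shCTRL 4sU intron, members higher in total intron were 9, and 1 had a 12-h rhythm in shBmal1 total intron, as with a stricter filter (1). Without trend and robust variance, shCTRL 24-h counts were 3 in total exon and 0 in 4sU intron. With each period alone they were 3 in total exon, 0 in total intron and 0 in 4sU intron. A linear time term left 0 24-h members in every layer and line except shBmal1 4sU intron (1). Leaving out 30, 34 and 46 h together, chosen after seeing the data, gave 10 and 4 24-h members in shCTRL and shBmal1 total exon.

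Leaving out each time point in turn, members higher and lower ranged from 11 to 18 and 17 to 18 in total exon, 10 to 15 and 11 to 17 in 4sU exon, 11 to 15 and 10 to 13 in total intron, 6 to 10 and 6 to 11 in 4sU intron, and 10 to 15 and 5 to 10 in the ratio. The 24-h counts ranged from 1 to 7 (shCTRL) and 5 to 12 (shBmal1) in total exon, 0 to 1 and 5 to 18 in 4sU exon, 0 to 2 and 0 to 1 in total intron, 0 to 1 and 0 to 8 in 4sU intron, and 2 to 19 in shBmal1 for the ratio. The 12-h counts in shBmal1 ranged from 0 to 12 in total exon, 0 to 5 in 4sU exon, 0 to 4 in total intron and 0 to 3 in 4sU intron, and the 24-h difference between lines from 0 to 1 in 4sU intron. Time points were shared by both lines, and many but not all libraries of the same time deviated together. Their r ran from -0.18 to 0.41 in total exon and from -0.33 to 0.60 in 4sU exon RNA. It was over 0.1 for 9 of 12 pairs in total exon, 10 in 4sU exon, 4 in total intron and 8 in 4sU intron RNA. A block by time point moved 1 count, members with a lower ratio, from 9 to 5. Except where printed above, shares of all genes in these alternative fits are not given.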

Other observations

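The shBmal1 culture of 46 h stood apart for genes of the PERK and ATF4 branch; these genes were singled out after their values were seen. In total exon RNA Chac1 was at 142 RPKM at 46 h, where the next highest shBmal1 library had 26.2. Trib3 was at 64.2 beside 15.0 RPKM, Atf3 at 15.3 beside 4.96, Ppp1r15a at 44.3 beside 18.9 and Atf4 at 441 beside 299.7. Among the members Herpud1 was 1.98 times the next highest library in total exon, 1.92 in 4sU exon, 1.79 in total intron and 1.71 in 4sU intron RNA, Ero1l was 1.92 times the next in 4sU intron and 1.66 in total intron RNA, and Ern1 was 1.48 times the next in 4sU intron RNA. No time point in shCTRL held such a set of values.

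Most of the PERK and ATF4 list was called higher in shBmal1 also without that culture. With all libraries 6 of its 8 tested genes were higher and 1 lower in total exon RNA, and leaving out 46 h gave the same counts. Without 46 h the line difference in total exon RNA was 0.81 ± 0.06 for Trib3, 0.63 ± 0.06 for Chac1 and 0.35 ± 0.04 for Atf4. Eif2ak3, the gene of PERK itself, was the lower one (-0.26 ± 0.03). The list was read with earlier results of these data known, and 34.4% of all genes were called higher in that layer.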
